A study of Mus musculus with 6 samples.

Results

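Hox genes are homeobox transcription factor genes that lie in 4 clusters in the mouse genome, Hoxa, Hoxb, Hoxc and Hoxd, on chromosomes 6, 11, 15 and 2. They were taken here as every gene whose symbol is Hox followed by a cluster letter and a paralogue number. Of these, 37 are described, of 19938 genes in all. Hoxb8 has only a probe set that it shares with Hoxb7, and no value is given for it.

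The stomachs labelled SmoM2 came from embryos of the genotype Nkx3.2Cre;R26-SmoM2 at the embryonic stage E13.5, and the comparison stomachs came from wild type embryos of the same day. SmoM2 is a form of Smoothened, the transducer of hedgehog signals, that is active without ligand. It is switched on from the R26 locus by a Cre recombinase driven by Nkx3-2, a gene of the stomach mesenchyme, and the arrays measured all cell types of the stomach together. Total RNA was hybridised to 3 Affymetrix arrays per group. The comparison asks how expression in the stomach differed when the hedgehog pathway was activated, here for the Hox genes. Whether each replicate was its own embryo, litter or pool is not in the labels; a p-value here therefore reflects how these 3 arrays of a group spread, which can be technical.

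The order of the genes in a Hox cluster follows the order of their domains along the body axis, and the paralogue number counts along it. Low numbers are active towards the head and high numbers towards the tail. In the gut, Hox genes are expressed mainly in the mesenchyme and in neurons derived from the neural crest, and their domains mark the successive regions of the tube. Hox proteins bind DNA together with cofactors of the Pbx, Meis and Pknox families. Polycomb proteins keep the silent genes of a cluster off, and trithorax proteins keep the active ones on.

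The promoters of 3 members are shown because the results turn on them. Hoxd10 and Hoxa10 varied most between arrays together with Hoxc10, and Hoxd3 was the member that varied least. Each is the 250 bases before a transcript start in RefSeq on build GRCm38.p6, 5′ to 3′ on the gene's own strand, with motif matches in capitals. For Hoxd10 and Hoxa10 this start lies inside the span that RefSeq gives the gene, since another transcript of each starts further upstream. The capitals are the CCAAT box (read here as its reverse, ATTGG) and the E box CACGTG in Hoxd10 (chr2:74691641-74691890, plus strand), TATAAA (read as TTTATA) and the CCAAT box in Hoxa10 (chr6:52234940-52235189, minus strand), and TTTATG, a site of Cdx and posterior Hox proteins, and the CCAAT box in Hoxd3 (chr2:74711743-74711992, plus strand).
Hoxd10: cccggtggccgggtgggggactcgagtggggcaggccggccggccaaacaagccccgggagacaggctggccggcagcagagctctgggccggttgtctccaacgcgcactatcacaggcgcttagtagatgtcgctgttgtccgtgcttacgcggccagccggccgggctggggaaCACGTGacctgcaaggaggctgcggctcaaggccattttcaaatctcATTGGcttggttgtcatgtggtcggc
Hoxa10: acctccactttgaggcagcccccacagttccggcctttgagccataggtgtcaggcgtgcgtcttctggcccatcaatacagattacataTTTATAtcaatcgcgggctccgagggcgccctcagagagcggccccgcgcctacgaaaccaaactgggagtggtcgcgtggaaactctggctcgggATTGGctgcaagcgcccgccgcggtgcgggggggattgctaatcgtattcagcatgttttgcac
Hoxd3: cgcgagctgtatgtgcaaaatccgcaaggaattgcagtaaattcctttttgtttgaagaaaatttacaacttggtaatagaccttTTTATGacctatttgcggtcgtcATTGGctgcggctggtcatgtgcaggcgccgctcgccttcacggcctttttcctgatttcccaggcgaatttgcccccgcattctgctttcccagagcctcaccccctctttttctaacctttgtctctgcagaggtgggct

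Motifs were searched on both strands in these upstream windows, of which 23 were available for 21 of the members and 32851 for all genes. Members without a window included Hoxc5, Hoxc6, Hoxc8 and Hoxc10, so the counts below do not cover them. The CCAAT box stood in 13 of the 23 Hox windows, against 33.8% of all windows, and the E box in 4, against 6.02%. TTTATG stood in 4 Hox windows (Hoxa7, Hoxd3, Hoxd4 and Hoxd11), against 10.8% of all, and TATAAA in 3, against 12.4%. The Pbx-Hox site TGATNNAT stood in 3 (Hoxa2, Hoxb1 and Hoxd11), against 7.68%. The Gli site GACCACCCA, the binding site of the hedgehog pathway's own transcription factors, stood in 0 of the 23, against 0.225% of all windows. Hox windows held a median of 13 CpG dinucleotides, against 6 for all windows. TTTATG and TATAAA can share bases with other AT-rich motifs, and a match describes letters, not a bound site.

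The clusters also hold microRNA genes of 2 families, which target Hox transcripts among others. Their mature sequences are shown with the seed, bases 2 to 8, in capitals. The miR-10 genes lie in the Hoxb and Hoxd clusters and share 1 seed, and the miR-196 genes lie in the Hoxa, Hoxb and Hoxc clusters and share another.
mmu-miR-10a-5p: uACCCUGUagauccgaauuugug
mmu-miR-10b-5p: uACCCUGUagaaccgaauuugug
mmu-miR-196a-5p: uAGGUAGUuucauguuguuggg
mmu-miR-196b-5p: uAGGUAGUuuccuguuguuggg

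Levels are log2 signals. Olfactory and vomeronasal receptor genes, which the stomach should not use, had means below 8.05 in 95% of 1190 cases, and this value is called the dim level. Stomach markers were above it. Barx1, a transcription factor of stomach and also spleen mesenchyme, was at 12.53 to 12.67 in SmoM2 and 12.42 to 12.72 in wild type. Sox2, of stomach epithelium, was at 9.49 to 9.99 in SmoM2 and 10.04 to 10.28 in wild type. Signals of neighbouring organs were present too. Gcg, counted here as a pancreas marker, was at 11.41 to 11.47 in SmoM2 and 12.14 to 12.63 in wild type. Alb, made by liver, was at 11.19 to 12.58 in SmoM2 and 10.31 to 12.31 in wild type. Of the 8 pancreas markers 2 were not above the dim level. Of 19938 genes, 196 (0.983%) passed the threshold of adjusted p 0.05 in limma's test of SmoM2 against wild type, 65 higher (0.326%) and 131 lower (0.657%). Of the 10 epithelial markers 5 were among the lower ones, and the mean level of all 10 was 9.83 to 9.93 in SmoM2 and 10.22 to 10.29 in wild type. In whole tissue, fewer cells of a type and less RNA per cell cannot be told apart. Before the Hox results, 1 array has to be set apart: wild type 1 had Xist, the transcript of the inactive X chromosome, at 7.11, where the other 5 arrays were at 11.43 to 12.37, and it also differed in the posterior Hox genes, as described below. The changes of the Hox genes named for their change, and the counts over clusters and paralogue groups, are therefore given with and without it; values of the other gene lists come from all 6 arrays.

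Hox genes of every cluster were above the dim level in the stomach. By mean over the 6 arrays 33 of the 37 members were above it, against 70.8% of all genes, and the 4 below were Hoxc11, Hoxc12, Hoxc13 and Hoxd1. Markers of other tissues passed the dim level too. Of the 10 spinal cord markers 1 was not above it, and of the 12 for sclerotome, limb and body wall 6 were not. A signal above the dim level therefore does not by itself show that a gene was expressed in the stomach. Probe sets differ in brightness, so a level ranks the signal of a probe set and does not order the transcripts of different genes. The plot of signal by array shows the members in the order of the clusters.

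**Figure D1:**
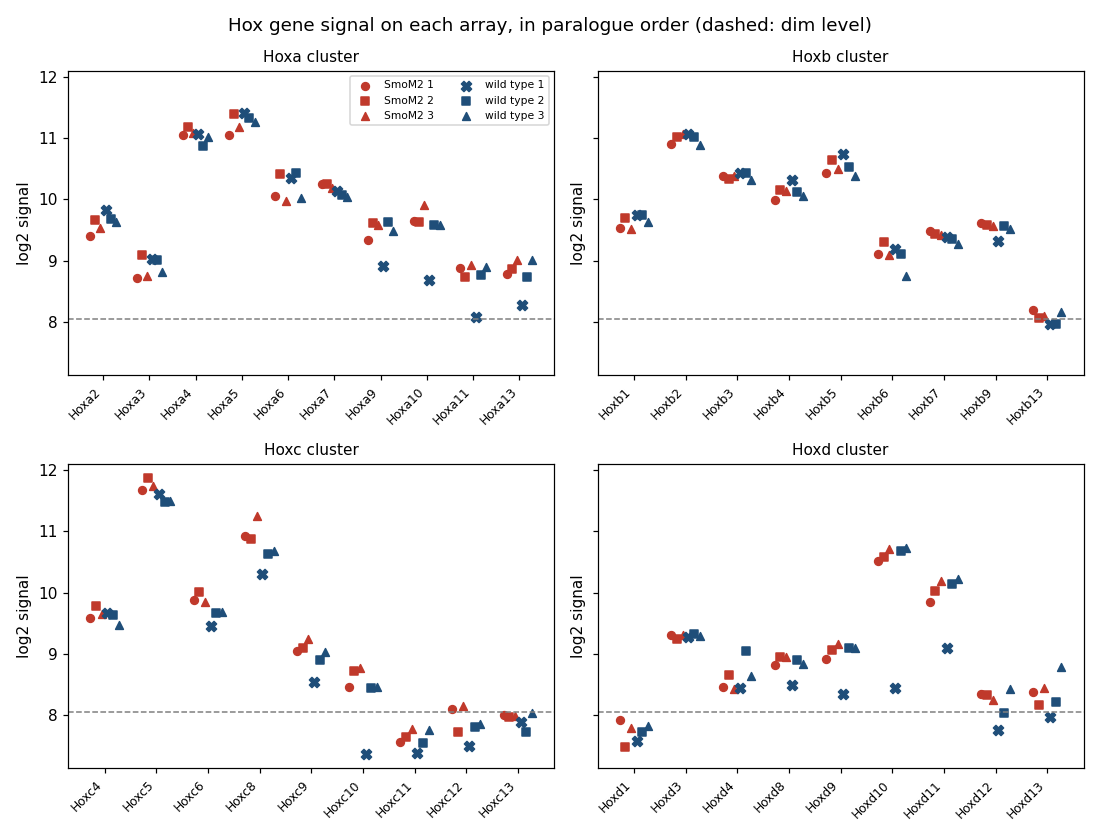
Log2 signal (vertical axis) of the 37 Hox genes in paralogue order (horizontal axis), 1 panel per cluster, with 3 SmoM2 arrays in red and 3 wild type arrays in blue; the dashed line is the dim level. Wild type 1, drawn as a cross, falls below the other arrays at the right of the Hoxa, Hoxc and Hoxd panels, as far as 8.45 for Hoxd10.

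Genes of paralogues 1 to 3, which pattern the hindbrain and neck, had signals of 7.73 to 11.00 in SmoM2 and 7.70 to 11.00 in wild type (group means, 7 members). Hoxb2, a regulator of the hindbrain, averaged 11.00 ± 0.08 in SmoM2 and 11.00 ± 0.10 in wild type (SD, n = 3 each, as for all means here). Hoxb3 averaged 10.36 ± 0.02 in SmoM2 and 10.39 ± 0.07 in wild type. Hoxb1, which specifies the facial motor nerve's segment of the hindbrain, averaged 9.59 ± 0.10 in SmoM2 and 9.71 ± 0.06 in wild type. These levels differed by no more than the arrays of 1 group differed. Hoxa2, which gives the second pharyngeal arch its identity, averaged 9.53 ± 0.13 in SmoM2 and 9.72 ± 0.10 in wild type. Hoxa3, needed for thymus and parathyroid, averaged 8.85 ± 0.20 in SmoM2 and 8.95 ± 0.13 in wild type. Hoxd3, which shapes the first neck vertebrae, was the steadiest member, at 9.32, 9.25 and 9.31 in SmoM2 and 9.28, 9.33 and 9.30 in wild type. Hoxd1 was below the dim level, at 7.73 ± 0.22 in SmoM2 and 7.70 ± 0.12 in wild type.

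Paralogues 4 to 8, the trunk genes that include the known stomach regulator Hoxa5, all 14 lay above the dim level. Their group means ran from 8.51 to 11.76 in SmoM2 and from 8.71 to 11.53 in wild type. Hoxa5, which is needed in mouse for normal stomach and lung mesenchyme, averaged 11.21 ± 0.17 in SmoM2 and 11.33 ± 0.08 in wild type. Its neighbour Hoxa4 averaged 11.11 ± 0.07 in SmoM2 and 10.99 ± 0.10 in wild type, and Hoxa6 averaged 10.15 ± 0.24 in SmoM2 and 10.27 ± 0.22 in wild type. All of these differences were within the spread of the arrays. Hoxb4, known for its effect on blood stem cells, averaged 10.10 ± 0.09 in SmoM2 and 10.16 ± 0.13 in wild type. Hoxb5, which acts in enteric neural crest cells, averaged 10.52 ± 0.11 in SmoM2 and 10.55 ± 0.18 in wild type. Hoxb6 averaged 9.17 ± 0.12 in SmoM2 and 9.02 ± 0.23 in wild type. None of the 3 passed the test. In the remaining clusters Hoxc4 averaged 9.67 ± 0.10 in SmoM2 and 9.59 ± 0.10 in wild type, and Hoxd8 averaged 8.91 ± 0.08 in SmoM2 and 8.74 ± 0.22 in wild type. Hoxd4, which shapes neck vertebrae, had the most negative change of all members, -0.20 (SE 0.14, adjusted p 0.712), and it was -0.33 (SE 0.13, adjusted p 0.669) with wild type 1 left out. It was at 8.45, 8.65 and 8.43 in SmoM2 and 8.44, 9.05 and 8.64 in wild type, and the groups overlapped.

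Paralogues 9 to 13, the genes of the lumbar, sacral and tail levels, of hindgut and of limbs, had group means from 7.66 to 10.61 in SmoM2 and from 7.56 to 9.95 in wild type. Of these 16 members 13 were above the dim level, which by itself does not show expression. In the Hoxb cluster, Hoxb9 averaged 9.58 ± 0.03 in SmoM2 and 9.46 ± 0.13 in wild type, and Hoxb13, of the tail end, averaged 8.12 ± 0.07 in SmoM2 and 8.03 ± 0.11 in wild type. Hoxc11, Hoxc12 and Hoxc13, the last a regulator of hair, averaged 7.66, 7.99 and 7.99 in SmoM2 and 7.56, 7.72 and 7.88 in wild type, all below the dim level. Hoxd12, a limb gene, averaged 8.31 ± 0.05 in SmoM2 and 8.07 ± 0.34 in wild type. Hoxd13, which acts in the limb and the end of the gut, averaged 8.33 ± 0.15 in SmoM2 and 8.32 ± 0.42 in wild type, close to the dim level.

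None of the 37 Hox genes passed the test between SmoM2 and wild type. limma called 0 of them, against 0.983% of all genes, and the lowest adjusted p was 0.15, for Hoxc8. At an unadjusted p under 0.05 there were 4, Hoxc5, Hoxc6, Hoxc8 and Hoxc9, against 10.5% of all genes. The changes, SmoM2 minus wild type, ran from -0.20 to 0.65 with a median of 0.118, against 0.002 for all genes, and 27 were above 0 (against 50.8% of all genes) and 10 below; without wild type 1, 23 were above 0. In 29 of the 37 the change over all 6 arrays was under 0.25 in size, against 18742 of all 19938 genes, a larger share. The 3 SmoM2 arrays were all above the 3 wild type arrays in 8 members (21.6%, against 5.64% of all genes), and all below in 0 (against 10.1%). Without wild type 1 these counts were 9 (24.3%, against 8.56%) and 0 (against 11.9%), the ninth being Hoxa4, and the median change was 0.044. Among cells that express Hox genes, markers of stomach mesenchyme went both ways: 3 of 10 rose (Foxf1, Foxf2 and Foxl1), 0 fell, 5 changes were above 0 and 5 below, and the median change was -0.04. Their mean level was 10.76 to 10.85 in SmoM2 and 10.64 to 10.73 in wild type, and in 3 other members all SmoM2 arrays were below all wild type arrays (Gata3, Isl1 and Sox9). Markers of enteric neurons and glia fell in 4 of 11 measured (mean level of all 11, 9.34 to 9.55 in SmoM2 and 9.80 to 9.95 in wild type). The part of these markers in the Hox values was not tested. The plot of changes gives both fits for each gene.

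**Figure D2:**
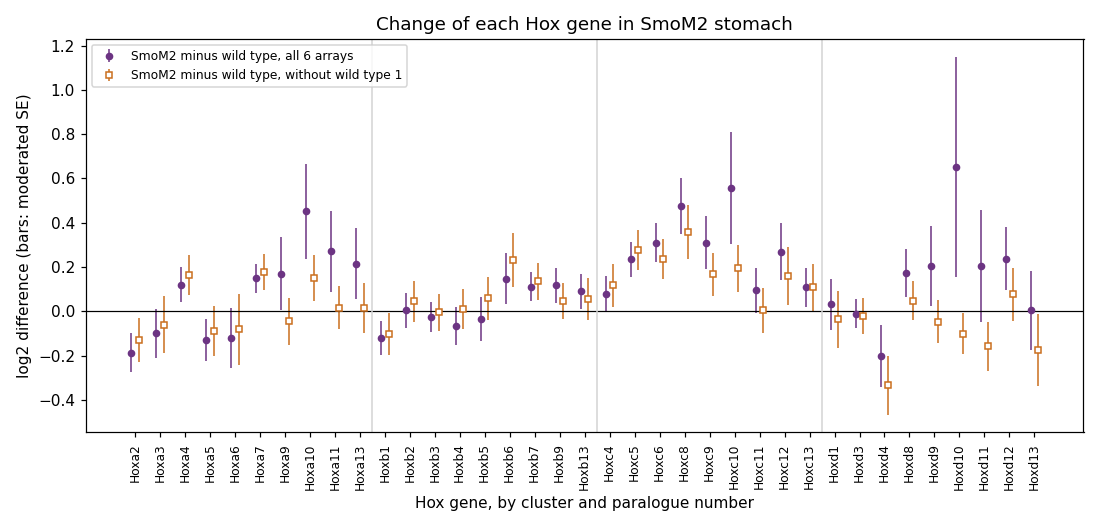
Change of each Hox gene, SmoM2 minus wild type, in log2 units (vertical axis) by cluster and paralogue number (horizontal axis), from all 6 arrays (filled circles) and without wild type 1 (open squares); bars are the moderated standard errors. Hoxd10 stands at 0.65 with an error of 0.50 from all arrays and at -0.10 without wild type 1. All 9 Hoxc members, 3 of them below the dim level, are above 0 in both.

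The Hoxc cluster held 5 of the 8 members whose groups did not overlap (55.6% of its 9, against 5.64% of all genes higher). Without wild type 1 it was again 5, against 8.56%. All 4 members with an unadjusted p under 0.05 were Hoxc genes, but 4 of 37 is close to the 10.5% of all genes. All 9 measured Hoxc members were higher in the SmoM2 mean (against 50.8% of all genes), with a median change of 0.27. Without wild type 1 all 9 were still above 0, with a median of 0.17 and a lowest value of 0.004 for Hoxc11. Hoxc11, Hoxc12 and Hoxc13 were below the dim level, and with all arrays the median was the value of Hoxc12. Hoxc8, a gene of thoracic vertebrae and motor neurons, was at 10.92, 10.87 and 11.25 in SmoM2 and at 10.30, 10.63 and 10.68 in wild type. The groups did not overlap, with wild type 1 the lowest array. Its change was 0.48 (SE 0.13, adjusted p 0.15), a 1.39-fold difference. With wild type 1 left out it was 0.36 (SE 0.12, adjusted p 0.520).

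Hoxc6, likewise a thoracic gene, was at 9.88, 10.02 and 9.84 in SmoM2 and at 9.45, 9.67 and 9.69 in wild type, with a change of 0.31 (SE 0.09, adjusted p 0.175). When wild type 1 was left out it was 0.23 (SE 0.09, adjusted p 0.640), and the groups still did not overlap. Hoxc5 was at 11.67, 11.88 and 11.74 in SmoM2 and at 11.61, 11.48 and 11.49 in wild type. Here wild type 1 was the highest wild type array, and the change of 0.23 (SE 0.08, adjusted p 0.288) was 0.28 (SE 0.09, adjusted p 0.50) without it. Hoxc9, which sets the thoracic identity of motor neurons, was at 9.05, 9.10 and 9.25 in SmoM2 and at 8.54, 8.90 and 9.03 in wild type. The highest wild type array was within 0.1 of the lowest SmoM2 array, and the change was 0.31 (SE 0.12, adjusted p 0.387), or 0.17 (SE 0.10, adjusted p 0.963) when wild type 1, the lowest array, was left out.

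Hoxc10, which acts in lumbar motor neurons and the hindlimb, was at 8.47, 8.71 and 8.77 in SmoM2 and at 7.36, 8.45 and 8.46 in wild type. The lowest SmoM2 array lay just above wild type 2 and 3, and wild type 1 lay far below both. With all arrays its change was 0.56 (SE 0.25, adjusted p 0.489), and with wild type 1 left out 0.19 (SE 0.11, adjusted p 0.935). Between the members of the cluster, Hoxc4 had a change of 0.08 (SE 0.08, adjusted p 0.825), or 0.12 (SE 0.10) with wild type 1 left out, and Hoxc8 the changes given above.

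In the Hoxa and Hoxb clusters 3 members had groups that did not overlap. They were 2 of 10 in Hoxa (20%) and 1 of 9 in Hoxb (11.1%), against 5.64% of all genes higher. Without wild type 1 the counts were 3 (30%) and 1 (11.1%), against 8.56%. Hoxa10, a gene of lumbar vertebrae and of the uterus, was at 9.65, 9.64 and 9.91 in SmoM2 and at 8.68, 9.59 and 9.58 in wild type. Apart from wild type 1 the gap between the groups was small, and the change of 0.45 (SE 0.21, adjusted p 0.517) was 0.15 (SE 0.10) without that array. Hoxa7 was at 10.26, 10.25 and 10.19 in SmoM2 and at 10.14, 10.07 and 10.04 in wild type, a change of 0.15 (SE 0.07, adjusted p 0.481), or 0.18 (SE 0.08, adjusted p 0.816) with wild type 1 left out. Hoxb7 was at 9.48, 9.44 and 9.43 in SmoM2 and at 9.38, 9.35 and 9.27 in wild type, a change of 0.11 (SE 0.07, adjusted p 0.642), or 0.13 (SE 0.08, adjusted p 0.992) with wild type 1 left out. For both, the groups were close and wild type 1 was the wild type array nearest to SmoM2. The median change was 0.13 for the 10 Hoxa members and 0.01 for the 9 Hoxb members, and -0.01 and 0.05 without wild type 1.

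The Hoxd cluster held the largest change of all Hox genes, which rested on 1 array. Hoxd10, a gene of lumbar motor neurons and the limb, was at 10.52, 10.58 and 10.72 in SmoM2 and at 8.45, 10.68 and 10.73 in wild type. The SmoM2 arrays and 2 of the wild type arrays overlapped, and wild type 1 differed from the mean of wild type 2 and 3 by -2.26. The change was 0.65 (SE 0.50, adjusted p 0.743), and -0.10 (SE 0.09) without wild type 1. In 0 of the 9 Hoxd members did the groups not overlap, with or without wild type 1. With all arrays 15.7% of all genes had groups that did not overlap, higher or lower. The median change of the Hoxd members was 0.17, or -0.05 without wild type 1.

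Across the 37 members the change grew with the paralogue number. Spearman's rho was 0.59 and Pearson's r 0.55 over these genes, which are neighbours in 4 clusters and share the same 6 arrays, so this is a description. Without wild type 1 rho was 0.16 and r 0.13. The median change was -0.03 for paralogues 1 to 3 (7 members), 0.12 for 4 to 8 (14) and 0.21 for 9 to 13 (16). Without wild type 1 the medians were -0.04, 0.13 and 0.03. All 16 posterior members were above 0 with all arrays, and 11 without wild type 1. Of the 8 members whose change turned sign without that array 5 were posterior genes: Hoxa9, Hoxd9, Hoxd10, Hoxd11 and Hoxd13.

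Wild type 1 was the lowest of the 6 arrays in 15 of the 16 members of paralogues 9 to 13 (93.8%), against 9.95% of all genes. The exception was Hoxc13, where it was wild type 2. Among paralogues 4 to 8 wild type 1 was lowest in 3 of 14 (Hoxc6, Hoxc8 and Hoxd8), and among paralogues 1 to 3 in 0 of 7. Relative to the mean of wild type 2 and 3, the median difference of wild type 1 was -0.57 in paralogues 9 to 13, 0.12 in 4 to 8 and 0.06 in 1 to 3. This array was singled out after its values were seen, so these counts carry no test.

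**Figure D3:**
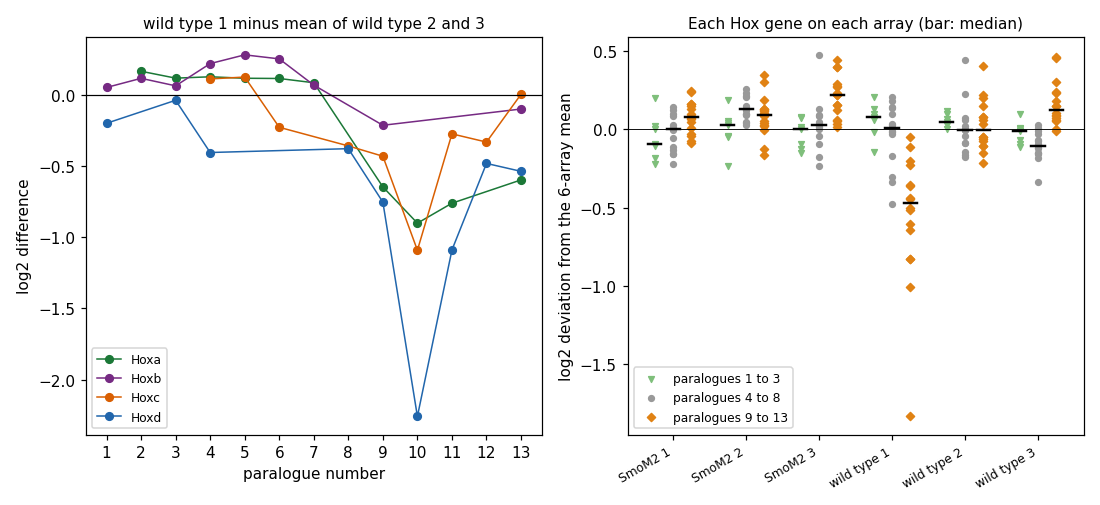
Left, wild type 1 minus the mean of wild type 2 and 3 in log2 units (vertical axis) by paralogue number (horizontal axis), 1 line per cluster. Right, the log2 deviation of each Hox gene from its mean over 6 arrays (vertical axis) on each array, by paralogue group, with black bars at the medians. The posterior genes of wild type 1 have a median deviation of -0.47, and the other 5 arrays have medians from -0.01 to 0.22.

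The plot of wild type 1 against the other wild type arrays shows where along the clusters the difference began. In the Hoxa cluster it was 0.09 at Hoxa7 and -0.65 at Hoxa9. Hoxa9 was at 9.34, 9.61 and 9.58 in SmoM2 and at 8.91, 9.63 and 9.49 in wild type. Hoxa11, a gene of kidney and forearm, was at 8.88, 8.74 and 8.94 in SmoM2 and at 8.07, 8.77 and 8.90 in wild type. Hoxa13, a gene of the hindgut and the limb's end, was at 8.78, 8.86 and 9.01 in SmoM2 and at 8.27, 8.73 and 9.01 in wild type. In each of the 3 the other wild type arrays lay among the SmoM2 arrays or within 0.1 of them.

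In the Hoxc cluster the difference was 0.13 at Hoxc5, -0.23 at Hoxc6, -0.36 at Hoxc8, -0.43 at Hoxc9 and -1.09 at Hoxc10, and it was 0.01 at Hoxc13, a dim gene. In the Hoxd cluster it was -0.04 at Hoxd3, -0.40 at Hoxd4, -0.38 at Hoxd8, -0.75 at Hoxd9, -2.26 at Hoxd10, -1.09 at Hoxd11, -0.48 at Hoxd12 and -0.54 at Hoxd13. In the Hoxb cluster it was 0.28 at Hoxb5, 0.25 at Hoxb6, 0.07 at Hoxb7 and -0.21 at Hoxb9. Paralogue 10 thus had the greatest deficit in each of the 3 clusters that hold it. Hoxd9 was at 8.91, 9.06 and 9.17 in SmoM2 and at 8.34, 9.09 and 9.10 in wild type. Hoxd11, which with Hoxa11 shapes kidney and forearm, was at 9.85, 10.02 and 10.20 in SmoM2 and at 9.09, 10.14 and 10.22 in wild type.

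Few other genes of wild type 1 stood as far from the rest. A gene was counted when it was at least 0.5 below the lowest of the other 5 arrays, a gap chosen after the values were seen. In wild type 1 there were 12 such genes, and 6 of them were Hox genes, namely Hoxd10, Hoxc10, Hoxa10, Hoxd11, Hoxa11 and Hoxd9. The other arrays had 0 to 10 such genes and 0 Hox genes among them. The remaining 6 of wild type 1 were Xist, AI506816, Fgl2, Alb (albumin), Fst (follistatin) and Rxfp2. At least 0.5 above the others it had 6, among them Uty of the Y chromosome and Cpa1, a pancreatic enzyme.

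Values that moved with this array were its sex-linked genes, at a mean of 10.37 for Y-linked genes in wild type 1, against 9.92 and 9.07 in wild type 2 and 3 and 8.71 to 9.27 in SmoM2. Over the 14 marker lists, the median difference of wild type 1 from the other wild type arrays ran from -0.11 for mesothelium to 0.13 for leukocytes. Among lists of tissues that use posterior Hox genes it was -0.04 for kidney and gonad, with single genes from -0.12 to 0.06. That list held 10 names and 9 measured genes, since Lim1 is another name of Lhx1. The median difference was -0.05 for sclerotome, limb and body wall (12 of 12 measured, from -0.28 to 0.02). It was -0.07 for spinal cord (10 of 10) and -0.01 for intestine (8 of 8, from -0.24 to 0.13). For pancreas it was 0.01 (8 of 8), with a highest value of 0.61 for Cpa1. Not above the dim level were 1 of 9 kidney and gonad genes and 6 of 12 for sclerotome, limb and body wall. For spinal cord it was 1 of 10 and for intestine 4 of 8, and dim signals can hide a shift. Wild type 1 was the lowest of the 6 arrays in 2, 3, 3 and 1 of them, against 9.95% of all genes. In sclerotome, limb and body wall these were Meox2 (-0.28), Prrx1 (-0.27) and the dim gene Tbx18 (-0.07). The part of the sex-linked genes or of any list in the Hox difference was not tested.

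Hox cofactors were at high signals and none passed the test. Of 9 listed, 8 were measured, with a median change of -0.07, and 0 were called higher and 0 lower. The largest changes were those of Meis1 and Meis2, which bind DNA with Hox and Pbx proteins. Meis1 was at 12.19, 12.31 and 12.15 in SmoM2 and at 12.40, 12.43 and 12.33 in wild type, a change of -0.17 (SE 0.07, adjusted p 0.455). Meis2 was at 12.70 to 12.87 in SmoM2 and at 12.86 to 13.01 in wild type, a change of -0.17 (SE 0.08, adjusted p 0.496). The Meis1 groups did not overlap and the Meis2 groups did. Pbx3 was the other cofactor whose groups did not overlap. It was at 12.34, 12.49 and 12.50 in SmoM2 and at 12.60, 12.53 and 12.63 in wild type (change -0.14, SE 0.07, adjusted p 0.558). That made 2 of the 8 measured, both lower, against 10.1% of all genes. In wild type 1 no cofactor was the lowest of the 6 arrays, and the differences of wild type 1 from wild type 2 and 3 ran from -0.08 to 0.09.

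**Figure D4:**
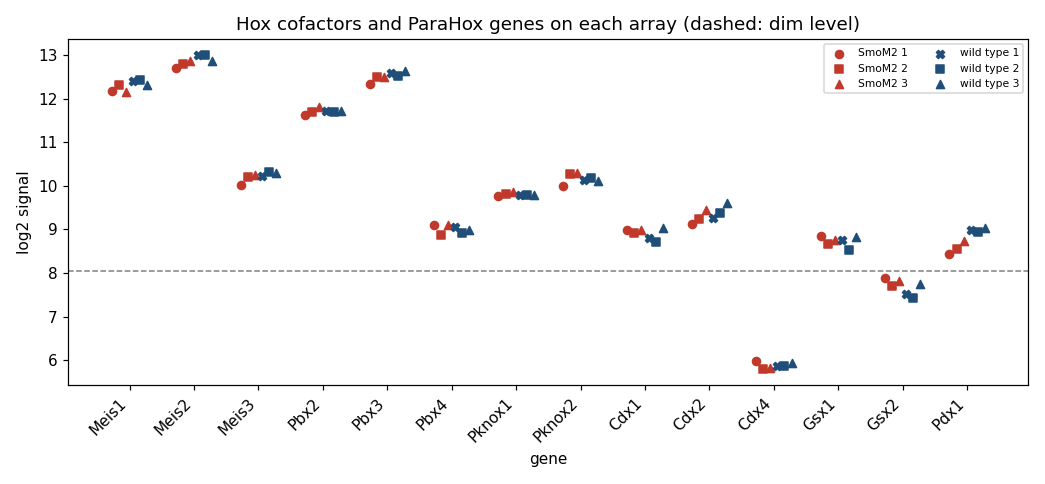
Log2 signal (vertical axis) of 8 Hox cofactors and 6 ParaHox genes (horizontal axis) on 3 SmoM2 arrays (red) and 3 wild type arrays (blue); the dashed line is the dim level. Pdx1 lies at 8.44 to 8.74 in SmoM2 and at 8.95 to 9.04 in wild type, and Cdx4 lies far below the dim level.

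The ParaHox genes and the upstream regulators of the Hox clusters, among them the Cdx genes and the enzymes and receptors of retinoic acid, had 15 of 16 members measured and 0 called. Their median change was 0.05. The plot of cofactors and ParaHox genes shows Pdx1, a ParaHox gene of pancreas, duodenum and the far end of the stomach, at 8.44, 8.56 and 8.74 in SmoM2 and at 8.99, 8.95 and 9.04 in wild type. The groups did not overlap, and the change was -0.41 (SE 0.09, adjusted p 0.066). Gsx2, a ParaHox gene of the brain, was below the dim level, with a change of 0.24 (SE 0.09, adjusted p 0.384). Cdx2, a gene of the intestine that activates posterior Hox genes, was at 9.13, 9.24 and 9.44 in SmoM2 and at 9.26, 9.39 and 9.61 in wild type, so its lowest wild type array was wild type 1 but not the lowest of the 6. The groups overlapped (change -0.15, SE 0.11, adjusted p 0.731). Both Pdx1 and the epithelial markers were lower in the SmoM2 mean. Pdx1 was also 1 of 8 pancreas markers, of which Cpa1 (-0.98, adjusted p 0.026) and Gcg (-0.86, adjusted p 0.017) passed limma's test as lower. Changes of 4 of these 8 were above 0. The part of the epithelium or of pancreas in the Pdx1 value was not tested.

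Chromatin regulators of the clusters showed 0 calls. Of 22 Polycomb genes 20 were measured, with a median change of -0.02. The largest changes were those of Ezh1, a histone methyltransferase (-0.20, SE 0.09, adjusted p 0.453), and Bmi1, a subunit of the complex that ubiquitinates histone H2A (0.13, SE 0.08, adjusted p 0.646). The trithorax list held 15 names, some of them other names of the same gene, and 11 genes were measured, with a median change of 0.00. Kmt2a, the histone methyltransferase that maintains Hox expression, was at 9.80, 10.18 and 9.91 in SmoM2 and at 10.44, 10.59 and 10.18 in wild type. Those groups met at SmoM2 2 and wild type 3 (change -0.44, SE 0.12, adjusted p 0.191). Hcfc1 had a change of -0.26 (SE 0.10, adjusted p 0.397).

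Noncoding and other genes inside the clusters were mostly dim. Of 21 listed 12 were measured, 8 of them not above the dim level, and 0 were called. The 5 measured genes of the microRNAs printed above were among the dim ones, so their values give no order between families. Mir10a was at 5.06, 5.14 and 5.12 in SmoM2 and at 5.44, 5.85 and 4.99 in wild type (change -0.32, SE 0.17, adjusted p 0.598). Evx2, the homeobox gene beside Hoxd13, had a change of 0.16 (SE 0.09, adjusted p 0.610). These values belong to probe sets for the microRNA genes, and whether they read the mature microRNA was not tested.

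Genes that flank the clusters gave a comparison outside the Hox genes. The list held 19 names, some of them other names of the same gene. Measured were 15 genes, with a median change of -0.01, and 0 were called. Hibadh, an enzyme of valine breakdown beyond the posterior end of the Hoxa cluster, was at 12.57, 12.59 and 12.53 in SmoM2 and at 12.35, 12.12 and 12.33 in wild type. The groups did not overlap (change 0.30, SE 0.08, adjusted p 0.152). Calcoco1, near the posterior end of the Hoxc cluster, had a change of -0.19 (SE 0.07, adjusted p 0.366). In wild type 1 these 15 genes differed from wild type 2 and 3 by -0.11 to 0.15.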

How the data were processed

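The deposited values were log2 signals of 35556 probe sets; the submitters' processing notes name RMA and affy, with versions and build not given in the sources used here. This method brings the arrays to a common distribution, so a change in total RNA would not show. Array medians ran from 8.56 to 8.62, and 6 arrays limit the precision. The platform annotation gave 21789 probe sets 1 symbol, 1621 several and 12146 none; 21698 matched RefSeq on GRCm38.p6 and 0 symbols changed. Each gene took its probe set with the highest mean, and 19938 genes were tested with limma 3.58.1 in R 4.3.3 (lmFit, eBayes, Benjamini-Hochberg over all genes, threshold 0.05), which was tested on simulated data. An exact permutation test of 3 against 3 cannot go below 0.1. The members and lists were chosen with earlier results of these data known. Values per array were given for members past the threshold, members whose groups did not overlap and the 6 largest changes, and for members named beside wild type 1, Hoxd3 and Hoxd4, which were chosen after their values were seen. Of other lists, members past the threshold or the 2 largest changes were named, and Cdx2, Pbx3, Meox2, Prrx1 and Tbx18 besides. Marker lists were counted in the same fit. Alternatives were the replicate block, each array left out, other filters, probe set rules, normalizations and eBayes settings, array weights and a Y-linked covariate.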

Additional observations from a re-analysis of the deposited data

How the results depend on the processing

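Under 17 alternatives, 15 called 0 Hox genes, with a lowest adjusted p among the members from 0.0794 (intensity trend) to 0.725 (Y-linked covariate). The replicate number as a block called 4 (Hoxa10, Hoxc6, Hoxc8 and Hoxc10) and 698 genes in all, against 196. Same-numbered arrays deviated from their group means with correlations of -0.10, 0.52 and 0.06, and differently numbered ones with -0.60 to 0.52. Deviations within a group of 3 sum to 0, so these correlations cannot decide whether the numbers pair the arrays. The labels state no pairing. Array weights called 21 Hox genes and 4110 genes in all; that fit stopped before it converged, with a weight of 6.02 on SmoM2 3 and 2.52 on wild type 1. The intensity trend called 336 genes and the Y-linked covariate 22, with a median Hox change of 0.025. Leaving out 1 array gave 32 to 247 genes (51 without wild type 1, 62 without wild type 2, 80 without SmoM2 1 and 32 without SmoM2 3), 0 Hox genes, and a median Hox change of 0.044 to 0.153. The cause of these differences was not tested.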

Other observations

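Genes outside the Hox clusters that set wild type 1 apart are given as values. Fst, follistatin, an inhibitor of activins, was at 11.48, 11.31 and 11.74 in SmoM2 and at 10.24, 11.06 and 11.08 in wild type (adjusted p 0.201). Alb, albumin, made by liver, was at 11.19, 12.58 and 12.31 in SmoM2 and at 10.31, 11.62 and 12.31 in wild type, so it varied within both groups (adjusted p 0.752). Rxfp2, a receptor of the relaxin family, was at up to 9.09 in SmoM2, and at 8.03, 9.07 and 8.88 in wild type (adjusted p 0.855). Pyy, a gut peptide hormone, was highest in wild type 1, at 9.80, 9.46 and 9.58 in SmoM2 and at 10.54, 9.83 and 9.97 in wild type (adjusted p 0.289).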
